A study of Caenorhabditis elegans with 2 samples.

Results

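The 8 CCT chaperonin genes of Caenorhabditis elegans, cct-1 to cct-8, were examined for chromatin recovered with the tagged FACT subunit HMG-4 in early embryos. They were taken by family membership, as the genes for the subunits of the CCT ring, and make up 8 of 19973 protein-coding genes on the 6 nuclear chromosomes. All 8 were found by symbol in the Ensembl WBcel235 annotation. They lie on chromosomes II (cct-1, cct-2, cct-3 and cct-4), III (cct-5 and cct-6), IV (cct-8) and V (cct-7).

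CCT, also called TRiC, is the chaperonin of the eukaryotic cytosol, a pair of stacked rings in which each ring holds 1 copy of every subunit. It encloses newly made proteins, above all actin and tubulin, and folds them at the cost of ATP. Because each ring needs all 8 subunits, the genes are generally expressed together, and dividing cells such as those of an early embryo need much CCT to supply the cytoskeleton and the spindle. HMG-4 is a worm counterpart of SSRP1. That protein is a subunit of FACT, which takes apart and rebuilds nucleosomes as polymerases pass.

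All data came from a single group of 2 biological replicates. Embryos of mixed sex were collected at 0 hours by bleaching, from strain OP660, which carries the unc-119 allele tm4063 and the transgene wgIs660. The transgene expresses HMG-4 fused to TY1, EGFP and 3xFLAG and restores unc-119. It is 1 transgenic line, the promoter that drives the fusion is not given in the labels, and the labels name no change to the native hmg-4 gene. Chromatin was broken by sonication into pieces of 200 to 800 bp, the pieces bound by tagged HMG-4 were recovered with an anti-GFP antibody, and the authors derived peaks from the alignments together with a control. The values are therefore peaks, each with a position of highest signal, the summit, and a signal value from the authors' caller. The signal value is used here to rank peaks within a list and, without scaling, to set the replicates side by side.

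There were 4 lists. The list of each replicate and the list from both replicates pooled hold 30000 peaks each, and the list kept after filtering on the irreproducible discovery rate (IDR) holds the 2137 strongest pooled peaks, with signal values of at least 130. The long lists include weak entries, since a deposited q-value of at most 0.05 was reached by 4903 pooled peaks, 7578 peaks of replicate 1 and 3064 of replicate 2. Read depth is unknown, so no counting error could be derived, and 1 group allows no comparison of conditions. Counts below are set beside the share of all protein-coding genes that met the same rule, and the spread between replicates is given by both values.

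The sequences shown first surround the strongest pooled 5′ summits that lie between genes, and the only IDR summit inside a CCT gene, because the results turn on these places. Each is 151 bases of the ce11 genome (RefSeq WBcel235), 5′ to 3′ on the strand of the CCT gene, with the 21 bases centred on the pooled summit in capitals. The window at cct-6 is not printed, since its summit falls in the 5′ UTR of the neighbouring gene, nor that at cct-3, where it falls in a coding exon.
cct-1 upstream, chrII:8185113-8185263, plus strand: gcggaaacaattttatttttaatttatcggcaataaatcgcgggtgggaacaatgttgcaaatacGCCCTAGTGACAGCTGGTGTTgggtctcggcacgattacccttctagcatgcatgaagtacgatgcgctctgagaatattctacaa
cct-5 upstream, chrIII:4508466-4508616, minus strand: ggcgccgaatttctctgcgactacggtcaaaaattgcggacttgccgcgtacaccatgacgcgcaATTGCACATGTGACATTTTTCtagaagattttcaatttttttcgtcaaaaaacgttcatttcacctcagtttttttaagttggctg
cct-7 upstream, chrV:1871892-1872042, plus strand: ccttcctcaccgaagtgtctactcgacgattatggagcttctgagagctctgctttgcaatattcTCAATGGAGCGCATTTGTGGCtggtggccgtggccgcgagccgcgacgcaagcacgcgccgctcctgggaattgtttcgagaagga
cct-8 upstream, chrIV:1094297-1094447, minus strand: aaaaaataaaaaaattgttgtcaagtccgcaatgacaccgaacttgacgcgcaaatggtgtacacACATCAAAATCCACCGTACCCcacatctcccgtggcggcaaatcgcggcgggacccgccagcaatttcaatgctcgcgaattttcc
cct-5 intron, chrIII:4502696-4502846, minus strand: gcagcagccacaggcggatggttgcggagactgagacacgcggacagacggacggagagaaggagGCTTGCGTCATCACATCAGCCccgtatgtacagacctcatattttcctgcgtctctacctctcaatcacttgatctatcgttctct
GC content was 43.7% in the cct-1 window, 41.7% and 54.3% in the upstream and intronic cct-5 windows, 57% at cct-7 and 49% at cct-8.

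Summits lay within 500 bp of the 5′ ends of at least 4 of the 8 genes in every list, with signal values that differed between subunits. Each of the IDR summits was nearer to the 5′ end of another protein-coding gene, and none lay within 200 bp of a CCT 5′ end. In the IDR list, 4 of 8 CCT genes (50%) had a summit no further than 500 bp from their annotated 5′ end, namely cct-1, cct-6, cct-7 and cct-8, against 874 of all protein-coding genes (4.38%). In the pooled list it was present for 6 of 8 CCT genes (75%), cct-3 and cct-5 being added, against 29.5% of protein-coding genes. Each replicate's own list had such a summit for 7 of 8 (87.5%), without cct-2 in replicate 1 and without cct-4 in replicate 2. The background was 28.2% of protein-coding genes in replicate 1 and 31.5% in replicate 2. When peaks were limited to a deposited q-value of at most 0.05, the pooled list gave 6 of 8 and the lists of replicates 1 and 2 gave 5 of 8 each, against 8.4%, 10.5% and 6.58% of protein-coding genes. The same 4 genes, cct-1, cct-5, cct-7 and cct-8, passed this limit in both replicates, cct-3 in replicate 1 alone and cct-6 in replicate 2 alone. The IDR count differed by replicate when the 2137 strongest peaks of one of them were used instead: replicate 1 held 2 members, cct-7 and cct-8, and replicate 2 held the same 4 as the IDR list.

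**Figure D1:**
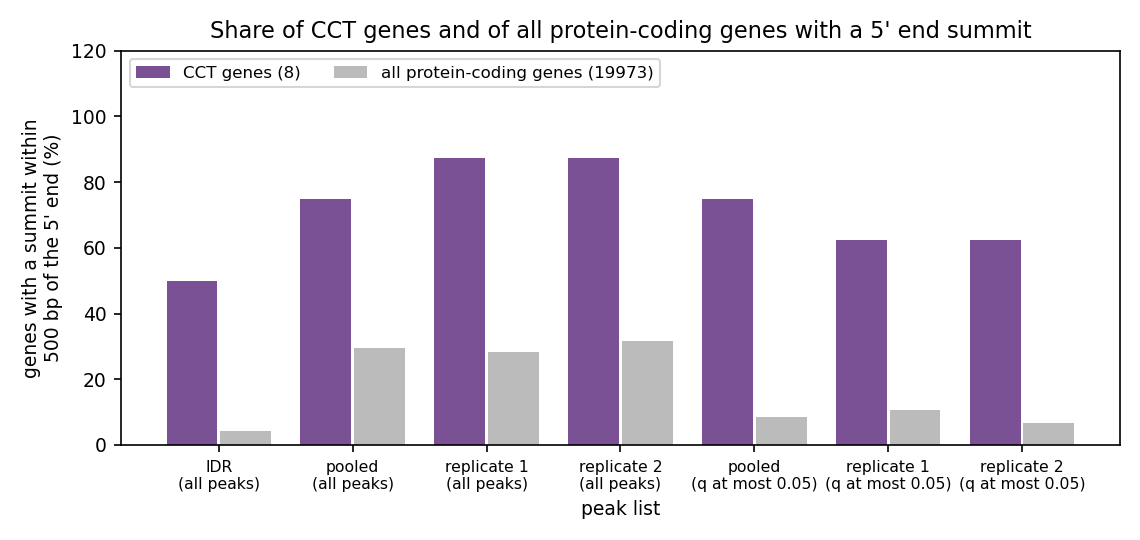
Percentage of the 8 CCT genes (purple) and of all 19973 protein-coding genes (grey) with a summit at most 500 bp from the 5′ end, by peak list, with all peaks or with peaks at a q-value of at most 0.05. The purple bar is the taller in every list, at 50% against 4.38% in the IDR list and 75% against 29.5% in the pooled list.

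The 5′ peak with the highest pooled value of the family was at cct-7, the gene of the eta subunit (chromosome V, 1872246 to 1875505, plus strand). It had a signal value of 182 in the pooled list (rank 973 of 30000), 80.8 in replicate 1 (rank 1651) and 113 in replicate 2 (rank 549). It was the highest of the family's 5′ peaks in replicate 2 as well, while in replicate 1 cct-8 was higher. The pooled summit lay 279 bp upstream of the 5′ end, in intergenic sequence, and the replicates' summits lay 325 and 268 bp upstream. A further summit 376 bp inside the gene, in a coding exon, had a value of 68.0 in replicate 1 (rank 2671) and 60.9 in the pooled list, and replicate 2 listed none there.

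At cct-8, the theta subunit gene (chromosome IV, 1087108 to 1093920, minus strand), the values were 176 in the pooled list (rank 1070), 85.5 for replicate 1 (rank 1414) and 90.7 for replicate 2 (rank 928). All 3 lists placed the summit at the same base, 452 bp upstream, and the replicates' values were close. A weaker summit about 296 bp inside the gene, in a coding exon, was listed in the pooled list (55.6) and in replicate 1 (41.4) but not in replicate 2.

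The alpha subunit gene cct-1 (chromosome II, 8185443 to 8187601, plus strand) had 153 in the pooled list (rank 1456), 64.8 for replicate 1 (rank 3089) and 93.7 for replicate 2 (rank 857), with the pooled summit 255 bp upstream. It was the only member with a second summit close to its own 5′ end in all 3 long lists. That summit lay 42 bp upstream with a pooled value of 89.0, and 64 and 28 bp upstream in replicates 1 and 2, with values of 34.0 and 51.9.

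The zeta subunit gene cct-6 (chromosome III, 5853530 to 5855687, minus strand) was the member on which the replicates differed most. Its pooled peak of 131 at 383 bp upstream (rank 2072) was just inside the IDR list. Replicate 2 had a value of 84.3 there (rank 1116), whereas replicate 1 had 36.9 (rank 13664) for the strongest of 3 weak summits, at 282 bp upstream, and none of those 3 reached a q-value of 0.05. Among the 2137 strongest peaks of each replicate, cct-6 was present in replicate 2 and absent in replicate 1.

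The epsilon subunit gene cct-5 (chromosome III, 4499188 to 4508114, minus strand) fell just outside the IDR list at its 5′ end. The peak 427 bp upstream had 121 in the pooled list (rank 2529), 58.2 for replicate 1 (rank 4185) and 61.4 for replicate 2 (rank 2444). Both replicates placed its summit within 1 bp of the pooled one, and their values were almost equal.

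The gamma subunit gene cct-3 (chromosome II, 2233540 to 2243539, plus strand) had its 5′ peak inside the gene, 261 bp downstream of the 5′ end and in a coding exon. Its values were 96.5 in the pooled list (rank 4498), 53.3 for replicate 1 and 38.4 for replicate 2. It was the only member with a higher value in replicate 1 than in replicate 2 among the 6 with a pooled 5′ peak.

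The beta subunit gene cct-2 (chromosome II, 8927741 to 8929815, plus strand) and the delta subunit gene cct-4 (chromosome II, 8283667 to 8285711, plus strand) had no 5′ summit in the pooled list. At cct-2, replicate 2 alone listed weak summits at -292 bp, upstream of the 5′ end (22.1, rank 29229), and 235 bp inside the gene (27.9, rank 18919). At cct-4, replicate 1 alone listed one 87 bp inside the gene (31.2, rank 18696). The nearest pooled summits to the cct-4 5′ end lay just beyond the 500-bp limit, 634 bp upstream within nst-1, a nucleostemin GTPase gene (61.9), and 616 bp inside cct-4 (60.1). None of these values reached a q-value of 0.05.

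**Figure D2:**
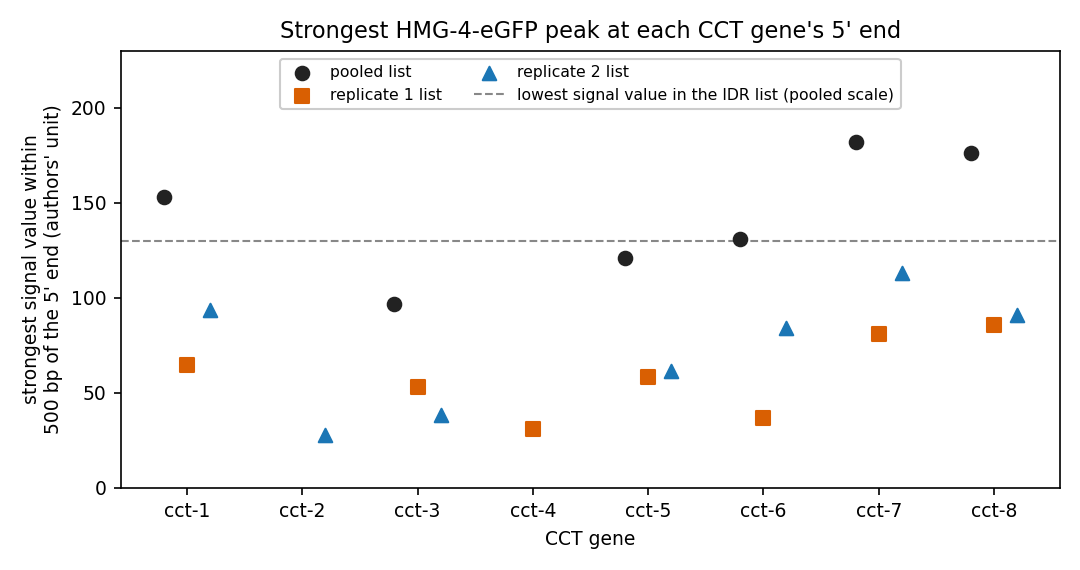
Strongest signal value within 500 bp of the 5′ end of each CCT gene in the pooled list (circles), replicate 1 (squares) and replicate 2 (triangles). A missing symbol means that the list holds no summit there, and the dashed line is the lowest value in the IDR list, 130, which applies to pooled values. The pooled values of cct-1, cct-6, cct-7 and cct-8 lie above the line and those of cct-3 and cct-5 below it.

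The order by pooled value was thus cct-7, cct-8, cct-1, cct-6, cct-5 and cct-3. On the replicates' own values, cct-7 and cct-8, cct-8 and cct-1, cct-1 and cct-6, and cct-6 and cct-5 had means that differed by less than the larger SD of the pair, so these neighbours cannot be put in order. The SDs ran from 2.24 at cct-5 to 33.5 at cct-6 (n = 2 each). Means and SDs were taken on signal values as deposited, without scaling between the replicate lists. The medians of those lists were 35.2 in replicate 1 and 31.0 in replicate 2, so a difference in scale would enter the SDs. Both values of cct-5 lay above both values of cct-3. Over the 6 genes with a 5′ summit in both replicates, the ratio of replicate 1 to replicate 2 had a median of 0.829, with a range of 0.438 at cct-6 to 1.39 at cct-3. Over the 3534 protein-coding genes with a 5′ summit in both replicates the median ratio was 1.14, with 5% of genes below 0.551 and 5% above 2.16, so the CCT genes leaned to replicate 2, and cct-6 lay below the lower bound. The median pooled value of the 4 CCT genes in the IDR list was 164, against 175 over all 874 protein-coding genes in it, so the CCT peaks were of ordinary strength for that list. The highest of them, cct-7, ranked 389 among the 874 genes.

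In both replicates' values, the gene nearest to cct-7 on the log2 scale was T10B5.4, which shares the peak itself (distance 0.000 over the 2 replicates). C34C12.8 followed, with 84.6 in replicate 1 and 112 in replicate 2 (distance 0.067), and then sco-1, a cytochrome oxidase assembly gene, with 77.1 and 115 (distance 0.074). These were the 3 nearest of the 3534 genes, and a likeness over 2 samples is only a description.

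At 5 genes, cct-1, cct-5, cct-6, cct-7 and cct-8, the strongest pooled 5′ summit lay upstream of the gene and closer to the 5′ end of another gene. For each of the 8 CCT genes the nearest upstream protein-coding gene is transcribed in the opposite direction, an arrangement found for 45.4% of all protein-coding genes. The gaps between the pairs run from 330 bp at cct-6 to 1189 bp at cct-2. At cct-1, cct-6, cct-7 and cct-8, the IDR summit was also within 500 bp of the 5′ end of that neighbour, which makes 4 of 4, against 33.8% of the 874 protein-coding genes with a 5′ summit in the IDR list. In the pooled list it was 5 of 6 CCT genes, cct-5 included, against 20.2%. The gap was 419 bp at cct-1, 330 bp at cct-6 and 438 bp at cct-7, so any summit between those pairs meets this rule. All 8 CCT genes had a divergent neighbour at most 1200 bp upstream, against 19.8% of protein-coding genes. The shares of 33.8% and 20.2% were not limited to such pairs, so these counts cannot be told apart from close gene spacing.

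In each of these 4 pairs the summit was nearer to the neighbour than to the CCT gene. The cct-1 summit lay 165 bp from the 5′ end of mig-5, a Dishevelled gene of the Wnt pathway, and 255 bp from that of cct-1. The cct-6 summit lay 52 bp inside alh-9, an aldehyde dehydrogenase gene, within its 5′ UTR, and 383 bp from cct-6. The cct-7 summit lay 160 bp from T10B5.4 and only 13 bp from the start of T10B5.13, a non-coding RNA gene of the same strand as cct-7 (1871980 to 1872075). The cct-8 summit lay 169 bp from Y55F3AR.2, 285 bp from the start of the non-coding gene Y55F3AR.4 and 452 bp from cct-8. At cct-5 the distances were 314 bp to F25F2.1 and 427 bp to cct-5.

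Peaks in such shared regions cannot be told apart as belonging to one gene or the other. When every summit was given only to its nearest protein-coding 5′ end, none of the 8 CCT genes kept an IDR summit, against 3.66% of protein-coding genes, a setting chosen after seeing the data. In the pooled list 5 of 8 kept one, against 27.2%: cct-1 through its summit at 42 bp, and cct-3, cct-5, cct-7 and cct-8 through summits 261 to 380 bp inside the genes. Of these kept summits, only that of cct-3 reached a q-value of 0.05. With the window narrowed to 200 bp the IDR count was also 0 of 8, against 2.18% of protein-coding genes. The pooled count was then 1 of 8, against 15%. Of genes in such pairs, 4 of the 8 CCT genes (50%) had an IDR summit at the 5′ end, against 8.81% of all protein-coding genes with a divergent neighbour at most 1200 bp upstream, a limit set after seeing the data to take in all 8 CCT genes.

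**Figure D3:**
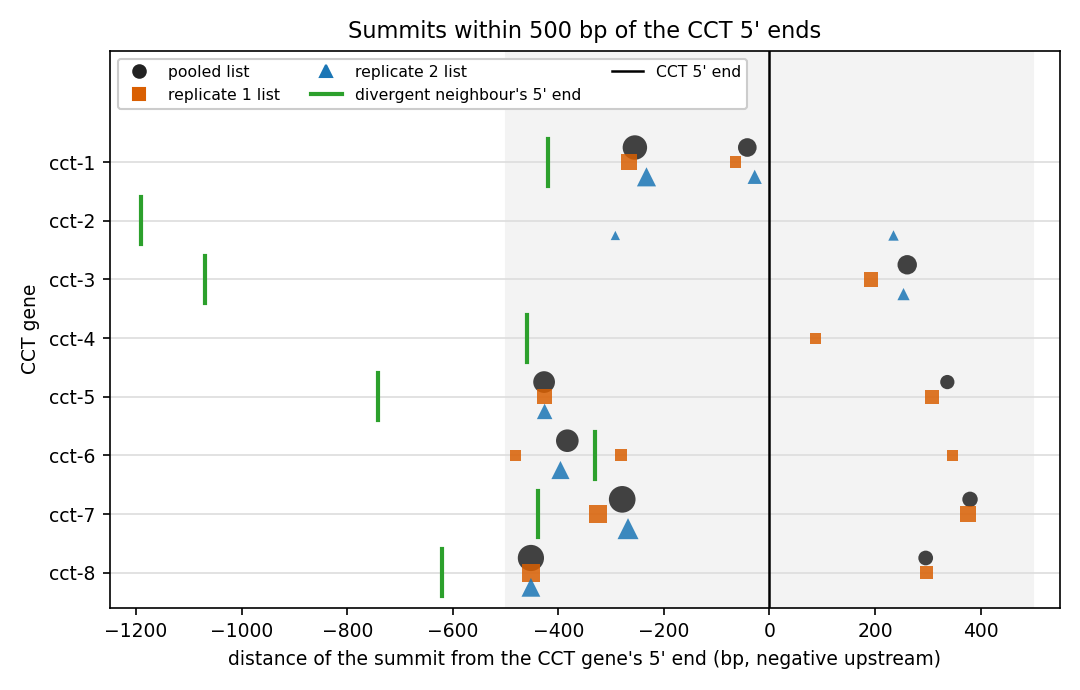
Position of every summit within 500 bp (grey band) of the CCT 5′ ends, in bp along the gene's own strand, with the CCT 5′ end at 0 (black line) and the 5′ end of the divergent neighbour in green. Symbol area grows with signal value, and circles, squares and triangles stand for the pooled, replicate 1 and replicate 2 lists. The largest symbols of cct-1, cct-5, cct-7 and cct-8 sit between the 2 genes, and the pooled and replicate 2 symbols of cct-6 sit beyond the neighbour's 5′ end, inside alh-9.

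Upstream placement was common to 5 of the 6 genes with a pooled 5′ summit, all but cct-3, against 52.8% of protein-coding genes with such a summit. In the IDR list it held for all 4 CCT genes, against 81.5% of protein-coding genes. The median offset of the strongest pooled summit over the 6 CCT genes was -331 bp, a negative offset being upstream, against -28 bp over the 5892 protein-coding genes with a pooled 5′ summit. Within the IDR list the medians were -331 bp for 4 CCT genes and -173.5 bp for 874 protein-coding genes. All 4 CCT summits of the IDR list were at least 250 bp upstream, as were 33.2% of those 874. The cct-1 summit, at 255 bp, only just passed this bound, and its replicate 2 summit, at 233 bp, did not. By the replicates' own lists it was 5 of 7 CCT genes in replicate 1, against 21.5%, and 4 of 7 in replicate 2, against 26%. Many worm transcripts receive a spliced leader in place of their original 5′ end, so annotated 5′ ends can lie downstream of the point where transcription starts. Whether this bears on the offsets of the CCT genes was not tested.

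Along the gene bodies, signal was widespread and mostly weak, with the exception of cct-5. Beyond 500 bp from the 5′ end, the IDR list had a summit inside 1 of 8 CCT genes (12.5%), cct-5, against 2.33% of protein-coding genes. The pooled list had one in all 8, against 33.6%. Replicate 1 had them in 7 of 8 (33.3% of protein-coding genes), without cct-1, and replicate 2 in 6 of 8 (35.5%), without cct-2 and cct-6. The CCT genes are somewhat longer than usual, with a median of 2709.5 bp against 2027 bp, and per kb of this part of the gene the pooled list held 0.628 summits in CCT genes against 0.329 in all protein-coding genes. Of the 21 pooled summits in CCT bodies, 12 fell in coding exons and 7 in introns.

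The peak inside cct-5 had the highest value of the family in the pooled list and in replicate 1, but not in replicate 2, where several 5′ peaks were higher. Its pooled value was 194 (rank 850), with 130 in replicate 1 (rank 521) and 65.6 in replicate 2 (rank 2056), so the replicates differed by a factor of 1.99 and replicate 1 was the higher one. The summit lay in an intron 5343 bp from the 5′ end, and its sequence is the intronic one printed above. A second intronic peak, 2168 bp from the 5′ end, had a pooled value of 128 (rank 2201), just below the IDR limit, with 81.0 in replicate 1 and 60.4 in replicate 2. In all, cct-5 held 7 pooled summits in its body, 5 in introns and 2 in coding exons.

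The other bodies were weaker. In cct-7 a summit 1686 bp from the 5′ end, in a coding exon, had 103 in the pooled list (rank 3825), 31.1 for replicate 1 and 58.1 for replicate 2. In cct-3 an intronic summit 7186 bp from the 5′ end had 87.0 in the pooled list, 60.1 for replicate 1 and 34.3 for replicate 2, close in size to the peak at its 5′ end. The strongest body summits of cct-8, cct-4, cct-1, cct-6 and cct-2 had pooled values of 61.6, 60.1, 51.2, 50.2 and 39.8, and none of these reached a q-value of 0.05.

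**Figure D4:**
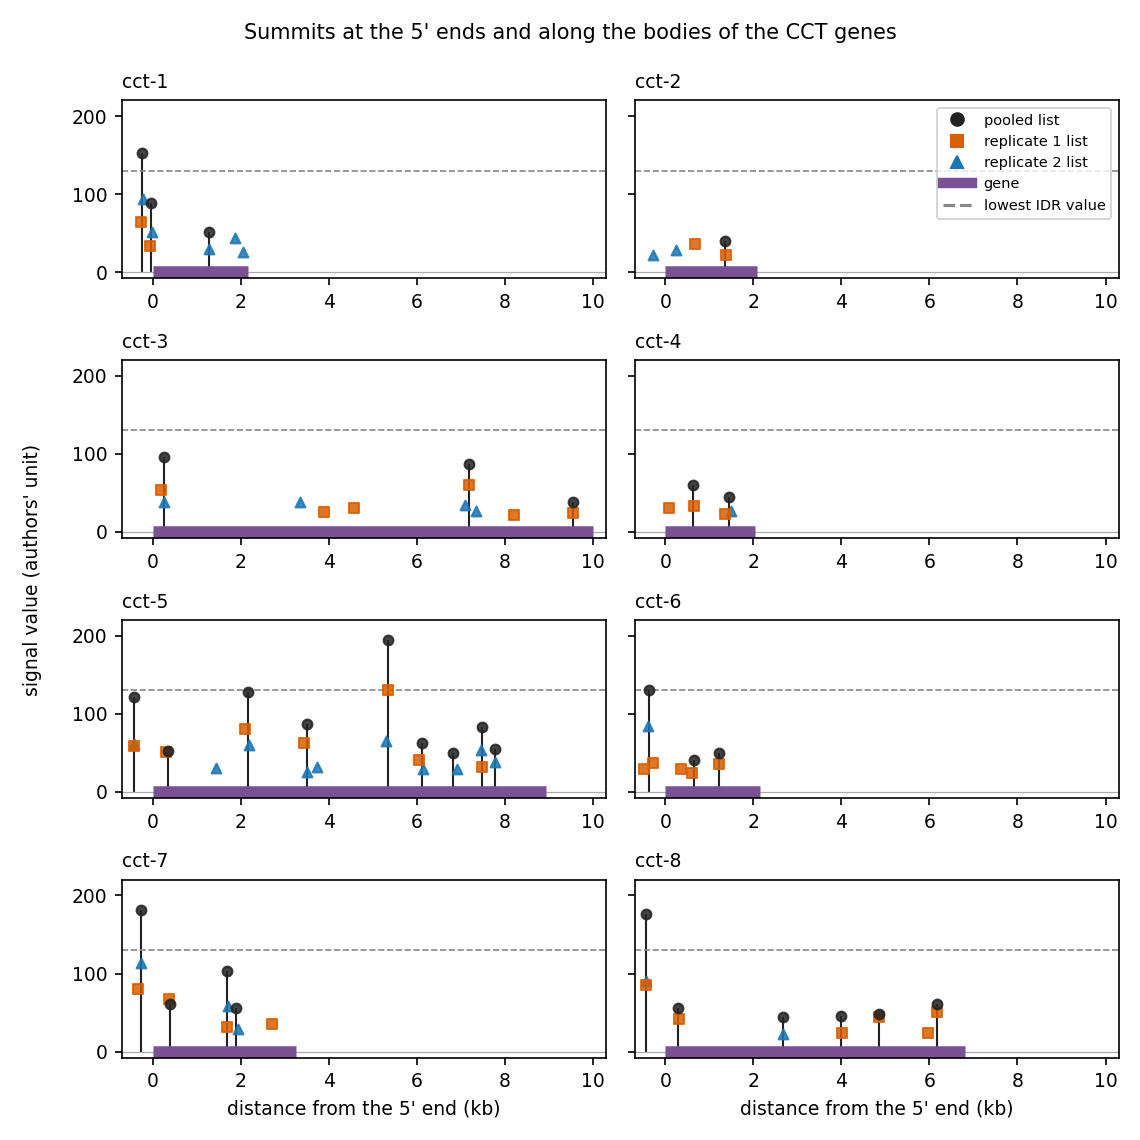
Signal value of each summit against its distance from the 5′ end in kb, 1 panel per CCT gene, for the pooled list (circles on stems), replicate 1 (squares) and replicate 2 (triangles). Purple bars are the genes and the dashed line is the lowest IDR value, 130. In cct-1, cct-6, cct-7 and cct-8 the tallest stem is upstream of the gene, while in cct-5 it is the intronic one at 194.

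Promoters of the family were often alike in 1 short sequence. Heat shock factor binds repeats of a short element, and the core GAANNTTC, which reads the same on both strands, was found in the promoters of 5 of 8 CCT genes, from 250 bp before to 50 bp after the 5′ end, against 18.5% of all protein-coding promoters. The genes were cct-1, cct-3, cct-5, cct-7 and cct-8, and those without it were cct-2, cct-4 and cct-6. The sites are printed here because 5 of the promoters share them, on the strand of each gene, in up to 60 bases of the ce11 genome (RefSeq WBcel235) that touch no exon of a protein-coding gene, with the core in capitals.
cct-1, chrII:8185225-8185284, plus strand: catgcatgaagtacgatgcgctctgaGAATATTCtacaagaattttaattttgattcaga
cct-3, chrII:2233492-2233539, plus strand: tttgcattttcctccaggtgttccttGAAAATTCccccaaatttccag
cct-5, chrIII:4508231-4508290, minus strand: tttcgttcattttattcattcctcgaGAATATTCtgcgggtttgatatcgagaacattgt
cct-7, chrV:1872061-1872120, plus strand: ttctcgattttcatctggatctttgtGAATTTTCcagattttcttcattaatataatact
cct-8, chrIV:1094076-1094135, minus strand: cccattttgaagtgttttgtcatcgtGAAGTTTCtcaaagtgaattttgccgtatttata
The middles of these cores lay at -189, -19, -146, -156 and -185 bp from the 5′ ends, in the order printed. From the strongest pooled summit they were 66, 280, 281, 123 and 267 bp away. The site at cct-8 falls in an exon of the non-coding gene Y55F3AR.4, and the others are intergenic.

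Within 301 bp centred on the strongest pooled 5′ summit, the same core was present at 4 of 6 CCT genes (cct-1, cct-3, cct-7 and cct-8), against 17.5% of the 5319 windows around the strongest pooled 5′ summits of protein-coding genes. At cct-1 and cct-7 these were the promoter sites already counted. At cct-3 and cct-8 they were other sites, 97 bp from the summit at cct-3 and 71 and 119 bp from it at cct-8. The TATA box TATAAA was present in the promoters of 2 of 8 CCT genes (cct-2 and cct-8), against 37.9% of promoters, and in 1 of 6 summit windows (cct-1), against 19.8%. The E-box CACGTG and the B box of tRNA genes were present in none of the 8 promoters and in none of the 6 summit windows, against 5.82% and 0.165% of promoters and 7.03% and 1.22% of windows. All 4 motifs were searched on both strands by exact letters, a match is not evidence of binding, and the absence of one says only that those letters are not in the window. GC content in the 301-bp windows ran from 33.6% at cct-1 to 44.9% at cct-7, with a median of 39.2% over the 6 CCT genes against 42.2% over all windows.

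Genes that work with CCT showed 5′ peaks of their own, mostly below the IDR limit. Prefoldin delivers unfolded actin and tubulin to CCT, and 6 of 6 prefoldin genes had a pooled 5′ summit with a median value of 81.8, but 0 of 6 had one in the IDR list. Over all protein-coding genes the shares were 29.5% in the pooled list and 4.38% in the IDR list. Of the client genes, 1 of 5 actin genes was in the IDR list, act-4 with 145 (123 in replicate 1 and 27.9 in replicate 2), and 4 of 5 had a pooled summit. Of 16 tubulin genes, 3 were in the IDR list and 10 in the pooled list. Those in the IDR list were tba-7 with 441, tba-1 with 215 and tba-2 with 141, all of them alpha-tubulin genes. The mitochondrial chaperonin gene hsp-60, whose product is built like CCT but acts in another compartment, had a pooled value of 40.1 and no IDR summit.

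Among other chaperones, 2 of 6 HSP70 and HSP90 genes were in the IDR list, hsp-1, a cytosolic HSP70, with 330 and hsp-3, an HSP70 of the endoplasmic reticulum, with 175, and 4 of 6 in the pooled list. Among the 14 genes of the 20S proteasome core, a ring-shaped complex with another task, 0 were in the IDR list and 10 in the pooled list, with a median of 75.9. The IDR shares were thus 50% for CCT, 33.3% for HSP70 and HSP90, 20% for actin, 18.8% for tubulin and 0% for prefoldin and the proteasome core, beside 4.38% of protein-coding genes. In the pooled list CCT, at 75%, was within the range of the related lists. Prefoldin had 100%, actin 80%, the proteasome core 71.4%, HSP70 and HSP90 66.7% and tubulin 62.5%, beside 29.5% of protein-coding genes. These shares hold for the 500-bp window. At 200 bp CCT had 0 members in the IDR list, while the IDR summits of act-4, tba-2 and hsp-3 lay at -43, -117 and 91 bp. With each summit given to its nearest protein-coding 5′ end CCT also had 0, and that count is not given for the related lists. Differences between these small lists were not tested.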

How the data were processed

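The study measured where tagged HMG-4 was recovered on chromatin in 2 biological replicates of early embryos. Peaks on ce11 were deposited as 4 lists, 1 for each replicate, 1 for the pool and 1 filtered by IDR. Per the file headers of text files beside them, both replicates were processed with the same control alignment. Neither aligner nor caller, nor any version or IDR threshold, is given in the sources used here. Signal values were deposited as the authors' caller wrote them, on a scale that is not stated, and the deposited −log10 q-value was used only for the limit of 0.05. Replicates share no peak with identical interval and signal value (0 peaks) and were kept as 2 samples. Lists that end at 30000 peaks depend on that limit for their weakest entries.

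Positions were set against the RefSeq genome of the same build and Ensembl release 115 genes, in 1-based coordinates, with Python 3.11.15, pandas 2.3.3 and numpy 2.4.6. A summit counted for a gene when it was at most 500 bp from that gene's annotated 5′ end, or for the gene body when it lay further inside the gene. The strongest summit of each list gives a member's value. Values of pooled peaks were matched to the strongest replicate peak overlapping by at least 1 bp. Related genes were named if they had an IDR summit, up to 4 per list. Of the listed genes, hsp-10 and daf-21 are not symbols of the annotation, the second being an older name of hsp-90. The placing of summits was tested on simulated data with 200 genes. The members, lists and alternatives were chosen with earlier results of these data known, and no test was made.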

Additional observations from a re-analysis of the deposited data

How the results depend on the processing

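Of 59 alternative values, 47 stayed within 1.5 times the reported count or within the spread between replicates, and 12 moved. Some of the 47 had little or no room to move. All 2137 IDR peaks reached a q-value of 0.05, and matching replicate summits within 100 bp mostly returned the same peak. With a window of 200 bp, 5′ summits were left at 0 members in the IDR list, 1 in the pooled list (cct-1), 3 by replicate 1 and 1 by replicate 2. The shares of protein-coding genes at 200 bp were 2.18%, 15%, 13.8% and 15.8%, in the same order. The other summits of the CCT genes lie further from the 5′ end, upstream or inside the gene. With summits given to the nearest protein-coding 5′ end only, the counts were 0 in the IDR list and 3 in replicate 2, against 3.66% and 28.8% of protein-coding genes. Under the same rule the pooled list kept 5 members and replicate 1 kept 7, against 27.2% and 26.2%. The stronger 1068 IDR peaks left 1 member, cct-7, and the share of protein-coding genes at that limit is not given here. With the 2137 strongest peaks of a single replicate used instead of the IDR list, the count was 2 to 4: 4 without replicate 1 (cct-1, cct-6, cct-7 and cct-8, against 4.83% of protein-coding genes) and 2 without replicate 2 (cct-7 and cct-8, against 3.79%). Limited to the 2137 strongest peaks, the pooled list and each replicate's list had a body summit in 1 member. For the pooled list these peaks are those of the IDR list, with 2.33% of protein-coding genes. The share is not given here for the replicates. The median offset was -303.5 to -332 bp when 1 replicate was left out. The settings on the nearest 5′ end and the q-value were chosen after seeing the data. No paired analysis was possible because there is only 1 group. Depth is unknown, so it sets no limit that can be given.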

Other observations

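Summits past the 3′ ends were looked at after the other values had been seen. Within 500 bp past the 3′ end, 4 of 8 CCT genes (cct-2, cct-4, cct-6 and cct-7) had a summit in the pooled list, against 13.6% of protein-coding genes. The strongest of these pooled summits ranked 5628, whereas 4903 pooled peaks reached a q-value of 0.05. In the replicates, cct-4 in replicate 1 (rank 4691, with 7578 such peaks) and cct-7 in replicate 2 (rank 2980, with 3064) ranked within that number. It was the same 4 genes in replicate 1 and in replicate 2, against 12.9% and 15.3%, and no CCT gene had one in the IDR list, against 1.19%. The genes cct-2 and cct-4, which lacked a pooled 5′ summit, had their strongest nearby pooled peaks here. In replicate 2 this did not hold for cct-4, where a summit at -630 bp from the 5′ end had 39.2 and the one past the 3′ end 30.4. At cct-2 the summit lay 178 bp past the end, inside a coding exon of mrpl-50, a mitochondrial ribosomal protein gene that starts 25 bp downstream on the same strand, with values of 88.7 in the pooled list, 44.4 for replicate 1 and 36.5 for replicate 2. At cct-4 it lay 447 bp past the end, between genes, with 85.3 in the pooled list, 56.1 for replicate 1 and 30.4 for replicate 2. At cct-7 it lay 219 bp past the end, in the 3′ UTR of the convergent gene zig-11, with 83.4 in the pooled list, 31.7 for replicate 1 and 56.8 for replicate 2. At cct-6 the lists placed different summits: 459 bp past the end in the pooled list (52.2) and 463 bp in replicate 1 (37.6), both in a coding exon of ddx-23, but 60 bp past the end, between genes, in replicate 2 (27.7). Whether any of these belongs to the CCT gene or to its neighbour was not tested.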
